A study of Mus musculus with 9 samples.

Results

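Enzymes of the pathway from tryptophan to NAD in the liver, 10 in number, were followed over 9 Affymetrix Mouse Gene 1.0 ST arrays. They were Tdo2, Ido2, Afmid, Kmo, Kynu, Haao, Acmsd, Aldh8a1, Qprt and Nadsyn1, taken by symbol from 19938 genes, and each was read by 1 probe set annotated with that symbol alone. Acmsd and Aldh8a1 belong to the arm that leaves for oxidation. The Nmnat genes, whose step precedes Nadsyn1, are not among the 10. The arrays held liver total RNA of 3 groups of male mice with 3 arrays each, labelled as biological replicates. N-control arrays came from lean C57BL/6J wildtype littermates, and OB-control and OB-TUDCA arrays came from ob/ob mice (strain B6.V-Lepob/J), which make no functional leptin and become obese, so that no lean mouse received the drug. OB-TUDCA mice were gavaged with tauroursodeoxycholic acid (TUDCA), a bile acid joined to taurine, at 500 mg/kg 2 times a day for 3 weeks, while both control groups were gavaged with tap water. The mice were bought at 6 weeks of age, ate normal chow and were fasted for 8 h before the liver was taken. The methods give 6 mice a group, of which the labels give 3 arrays.

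Hepatocytes hold the complete route from tryptophan to NAD, which makes the liver the main site of this synthesis. The ring of tryptophan is opened to formylkynurenine, trimmed to kynurenine, and turned over 3 further steps into an unstable semialdehyde. That semialdehyde either closes by itself to quinolinate, from which NAD is built, or is decarboxylated and sent to oxidation in the glutarate arm. Macrophages and dendritic cells also use parts of the route, among them Kmo and Kynu.

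All values are deposited log2 signals of robust multi-array average (RMA), a method that corrects the background of an array, makes the distributions of the arrays equal and gives 1 value per probe set. A difference of 1 is thus a 2-fold difference of signal. Differences between groups were taken from limma, a linear model fitted to all 19938 genes, with a spread estimated over the 3 groups together. Each carries its standard error (SE), and the Benjamini-Hochberg adjusted p is over all genes with a threshold of 0.05. Levels of different enzymes come from different probes and were not compared. Any 2 of the 3 comparisons share the arrays of a group and are not independent of each other.

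Correlations over all genes were 0.981 to 0.99 between arrays of a group and 0.976 to 0.987 between groups. The N-control replicate 2 array stood apart, with a mean of 10.57 over 17 pancreatic acinar markers where the other 8 arrays had 3.885 to 4.329. Its enzyme values lay beside those of the other N-control arrays, and results that change without it are given so. Hepatocyte markers (11 genes) averaged 12.56 to 12.62 on N-control, 12.3 to 12.49 on OB-control and 12.46 to 12.52 on OB-TUDCA arrays, all labelled liver. Their median difference between OB-control and N-control was -0.27. In that comparison 6 of the 11 were lower at an unadjusted p under 0.05 in limma, against 5.59% of all genes, and 0 passed the adjusted threshold. Kupffer cell and macrophage markers (10 genes) averaged 6.826 to 7.151 on N-control, 6.76 to 7.149 on OB-control and 6.93 to 7.539 on OB-TUDCA arrays. Of these 10, 0 passed the test in any comparison, where 0.115% to 1.89% of all genes did, by comparison and direction. Their median difference between OB-TUDCA and OB-control was 0.29, and their part in the enzyme values was not tested. Against N-control, 1 hepatocyte marker, the transcription factor Hnf4a, was higher in OB-TUDCA by 0.58 (adjusted p = 0.0451 in limma). Most of that list went the other way, with 9 of 11 means lower in OB-TUDCA and a median difference of -0.11. At an unadjusted p under 0.05, 3 of the 11 were lower and 1 higher, against 8.15% and 10.4% of all genes. Of 7 endothelial markers in the same comparison, Lyve1, a hyaluronan receptor, was higher by 2.44 (adjusted p = 0.011), and Kdr, a VEGF receptor, was at -1.17 (adjusted p = 0.0218). Of all genes, 1.35% were called higher and 1.89% lower. The endothelial list had 3 means higher and 4 lower, with a median difference of -0.03. At an unadjusted p under 0.05, 3 of the 7 were higher and 3 lower, against 10.4% and 8.15% of all genes. The call of Hnf4a was lost in 12 of 18 alternative fits and that of Kdr in 8, and that of Lyve1 without OB-TUDCA replicate 2 and in the methods' t-test. The part of these markers in the enzyme values was not tested. In bulk liver, fewer cells of a type and less RNA per cell cannot be told apart.

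TUDCA-treated ob/ob livers had lower signal than untreated ob/ob livers for most of the route. Kmo, which hydroxylates kynurenine, fell. Ido2, Kynu, Haao, Aldh8a1 and Qprt also read lower on every OB-TUDCA array than on any OB-control array, but they missed the adjusted threshold. The first and the last enzyme, Tdo2 and Nadsyn1, had differences of 0.05 and 0.01. In all, 1 of 10 enzymes was lower at an adjusted p under 0.05, where 0.186% of all genes were, and 0 were higher, where 0.115% of all genes were. At an unadjusted p under 0.05, 6 enzymes were lower against 5.72% of all genes, and 0 were higher against 6.26%. The arrays of both groups did not overlap, with OB-TUDCA lower, for 6 enzymes and for 6.53% of all genes. The median difference of the enzymes was -0.49, and that of all genes was 0.01. The enzymes were taken up with these data already seen, so no test was made of the list itself.

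Between untreated ob/ob and lean livers the enzymes had 4 differences above 0 and 6 below, from -0.35 for Ido2 to 0.10 for Kmo. Of the 10, 0 passed the adjusted threshold in limma in either direction, with 0.456% of all genes higher and 0.492% lower. There were also 0 enzymes at an unadjusted p under 0.05, against 6.55% of all genes higher and 5.59% lower. The methods' t-test, an unmoderated test on the 6 arrays of both groups, gave 0 adjusted calls and 1 enzyme, Kmo with the higher level in OB-control, at an unadjusted p under 0.05. That unmoderated test had 893 of 19938 genes higher and 756 lower in OB-control at the same unadjusted level. The median difference was -0.13 over the enzymes and 0.02 over all genes.

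Between TUDCA-treated ob/ob and lean livers, Ido2, Kmo, Kynu and Haao fell, which is 4 of 10 enzymes where 1.89% of all genes were called lower, and 0 enzymes were higher where 1.35% of all genes were. At an unadjusted p under 0.05, 7 enzymes were lower against 8.15% of all genes, and the arrays did not overlap, with OB-TUDCA lower, for 7 enzymes against 8.95% of all genes. The median was -0.47 for the enzymes and 0.04 for all genes.

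**Figure D1:**
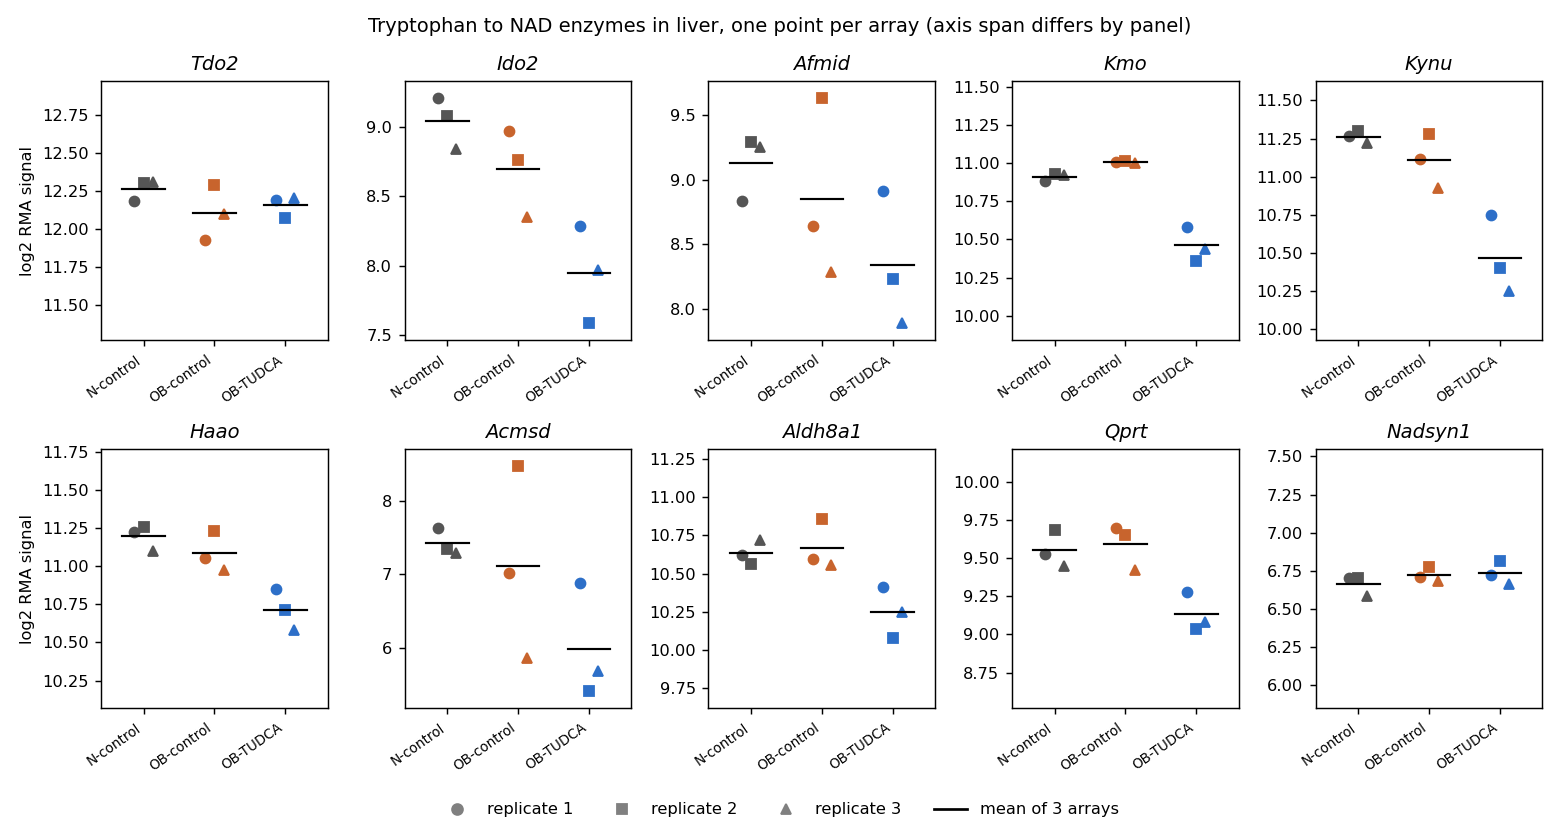
Deposited log2 signal (y axis, a separate scale for each enzyme) of the 10 enzymes on each of 9 arrays, with points for arrays and bars for group means by group (x axis). Kmo had OB-TUDCA arrays at 10.36 to 10.58 below all OB-control arrays at 11.00 to 11.02, whereas the arrays of Tdo2 and Nadsyn1 overlapped.

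Tdo2 and Ido2 open the ring of tryptophan, and Tdo2 (probe set 10498921) is the form that hepatocytes use most. Tdo2 signal was 12.19, 12.30 and 12.31 on the N-control arrays, 11.93, 12.29 and 12.10 on those of OB-control and 12.19, 12.07 and 12.21 on those of OB-TUDCA. The groups overlapped, and OB-control replicate 1 had the lowest value. OB-TUDCA was 0.05 above OB-control (95% interval -0.17 to 0.27, adjusted p = 0.888 in limma). Between OB-control and N-control the difference was -0.16 (interval -0.38 to 0.06, adjusted p = 0.583). The order from high to low was N-control, OB-TUDCA and OB-control, and no neighbours in it differed beyond their spread.

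Ido2 (probe set 10577645) is an enzyme of the liver related to the interferon-induced Ido1. Its signal was 9.21, 9.07 and 8.84 on the N-control arrays, 8.97, 8.76 and 8.35 on those of OB-control and 8.29, 7.59 and 7.97 on those of OB-TUDCA. All OB-TUDCA arrays lay below all others, while both control groups overlapped. OB-TUDCA was at 46.9% of N-control, a log2 difference of -1.09 (SE 0.20, interval -1.55 to -0.64, adjusted p = 0.0215). Against OB-control the difference was -0.75 (SE 0.20, interval -1.20 to -0.29) with an adjusted p of 0.158 in limma, which missed the threshold. The highest OB-TUDCA array and the lowest OB-control array, 8.29 and 8.35, were close to each other.

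Afmid (probe set 10382985) is the formamidase that releases kynurenine. N-control arrays read 8.83, 9.29 and 9.25, OB-control arrays 8.64, 9.64 and 8.28, and OB-TUDCA arrays 8.91, 8.23 and 7.89. OB-control replicate 2 was the highest of all 9 arrays, and OB-TUDCA overlapped both control groups. Within OB-control, the highest array had 2.557 times the signal of the lowest. The difference of OB-TUDCA from OB-control was -0.51 with an interval from -1.30 to 0.28 (adjusted p = 0.618). It was -0.12 without OB-control replicate 2 and -0.80 without OB-control replicate 3.

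Kmo (probe set 10352000) hydroxylates kynurenine to 3-hydroxykynurenine and competes there with the transaminases that make kynurenic acid. Its signal was 10.88, 10.93 and 10.92 on the N-control arrays, 11.01, 11.02 and 11.00 on those of OB-control and 10.58, 10.36 and 10.44 on those of OB-TUDCA. No pair of groups overlapped: OB-control was highest and OB-TUDCA lowest. Kmo fell under TUDCA to 68.4% of OB-control, a log2 difference of -0.55 (SE 0.075, interval -0.72 to -0.38, adjusted p = 0.0295). It fell to 73.3% of N-control, a difference of -0.45 (SE 0.075, interval -0.62 to -0.28, adjusted p = 0.0155). OB-control exceeded N-control by 0.10 (interval -0.07 to 0.27, adjusted p = 0.657). It was the only enzyme whose OB-control arrays all lay above the N-control arrays, which held for 8.49% of all genes. The pooled standard deviation of Kmo within groups was 0.067, and 8.45% of all genes had a smaller one.

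The call of Kmo between OB-TUDCA and OB-control rested on most of the arrays. The difference stayed between -0.61 and -0.50 when each array was left out in turn, while its adjusted p was under the threshold without OB-TUDCA replicate 1 (0.0179) and above it without any other array. It was 0.0596, 0.0675 and 0.0516 without N-control replicates 1, 2 and 3, 0.125, 0.055 and 0.0753 without OB-control replicates 1, 2 and 3, and 0.117 and 0.101 without OB-TUDCA replicates 2 and 3. It was also above the threshold in a fit of only the 6 arrays compared (0.125), with the acinar marker mean as a covariate (0.0674) and in the methods' t-test (0.394).

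Kynu (probe set 10471912) cleaves 3-hydroxykynurenine to 3-hydroxyanthranilate with vitamin B6 as cofactor. It read 11.27, 11.30 and 11.22 on the N-control arrays, 11.12, 11.28 and 10.93 on those of OB-control and 10.75, 10.40 and 10.25 on those of OB-TUDCA. Every OB-TUDCA array was below every array of both control groups, which overlapped. Kynu fell to 57.6% of N-control, a log2 difference of -0.80 (SE 0.13, interval -1.09 to -0.50, adjusted p = 0.0155). Against OB-control it was at 64.1%, a difference of -0.64 (SE 0.13, interval -0.94 to -0.34, adjusted p = 0.0813). Without OB-TUDCA replicate 1, its highest OB-TUDCA array, this difference was -0.78 and passed the threshold. That was 1 of 19 alternatives, and in the other 18 the direction held without passing. The adjusted p was 0.261 in limma without OB-control replicate 1 and 0.64 in the methods' t-test.

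Haao (probe set 10453260) opens the ring of 3-hydroxyanthranilate and makes the semialdehyde at which the route divides. N-control arrays read 11.22, 11.26 and 11.10, OB-control arrays 11.06, 11.23 and 10.97, and OB-TUDCA arrays 10.85, 10.71 and 10.58. The pattern was that of Kynu, with all OB-TUDCA arrays lowest and the control groups overlapping. Haao fell to 71.6% of N-control, with a difference of -0.48 (SE 0.099, interval -0.70 to -0.26, adjusted p = 0.0325). Against OB-control it was -0.37 (SE 0.099, interval -0.60 to -0.15) with an adjusted p of 0.149. The differences between OB-control and N-control were -0.15 for Kynu (interval -0.45 to 0.15) and -0.11 for Haao (interval -0.33 to 0.12).

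The 4 calls against N-control also depended on single arrays. There were 0 called enzymes without N-control replicate 1, N-control replicate 2 or OB-TUDCA replicate 2, and 1 (Kynu) without OB-TUDCA replicate 3. Without N-control replicate 3 or OB-control replicate 1 the call of Haao alone was lost, and with the acinar marker mean as a covariate there were 0 calls.

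**Figure D2:**
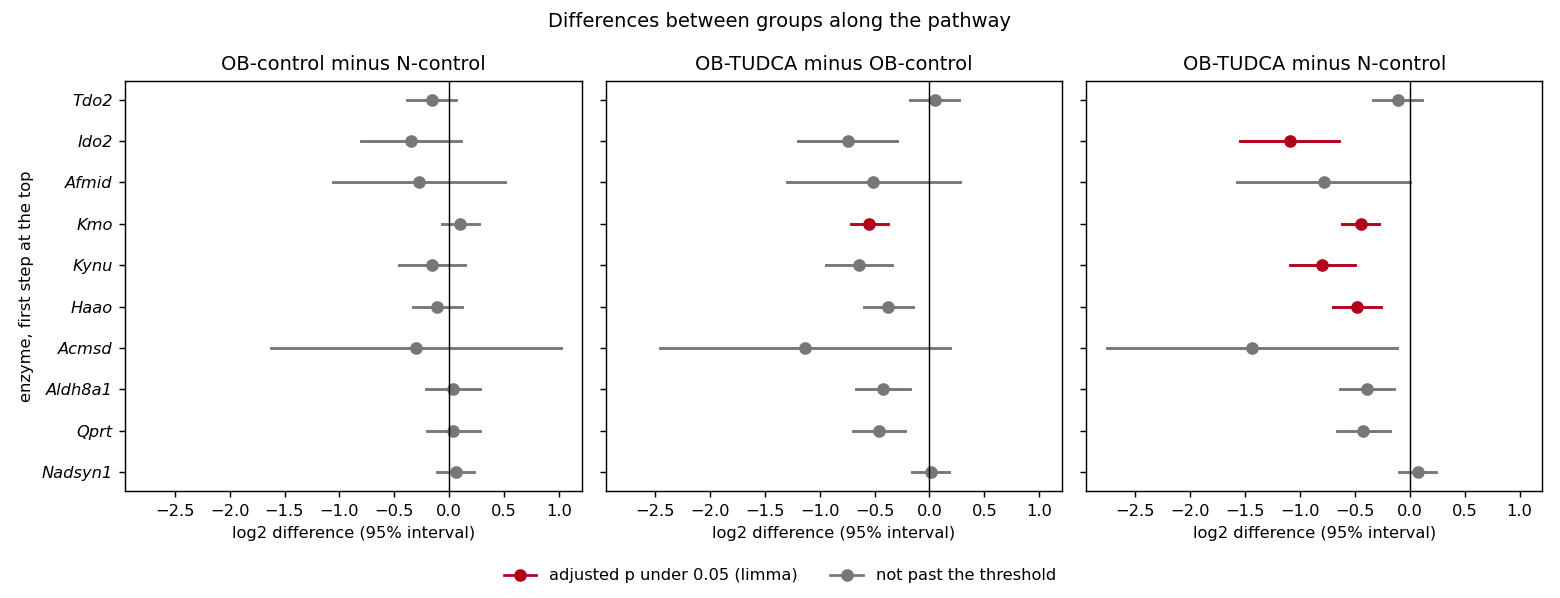
Log2 difference of group means (x axis) for each enzyme in pathway order (y axis) in 3 comparisons, with points for the estimates and bars for 95% intervals from limma. In OB-TUDCA minus OB-control the middle steps lie left of 0, with Kmo at -0.55 and Kynu at -0.64, and the wide bar is that of Acmsd, from -2.46 to 0.18.

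At the branch, Acmsd (probe set 10349431) decarboxylates the semialdehyde and so takes it away from NAD. Its signal was 7.63, 7.35 and 7.29 on the N-control arrays, 7.02, 8.49 and 5.85 on those of OB-control and 6.88, 5.40 and 5.67 on those of OB-TUDCA. The lean arrays lay close together, whereas the highest OB-control array had 6.195 times the signal of the lowest and the highest OB-TUDCA array 2.782 times. OB-TUDCA was at 45.5% of OB-control, a log2 difference of -1.14 (SE 0.59, interval -2.46 to 0.18, adjusted p = 0.492), and the arrays overlapped. Without OB-control replicate 2 the difference was -0.45, and without OB-control replicate 3 it was -1.77. All OB-TUDCA arrays were below all N-control arrays, with a difference of -1.44 and an adjusted p of 0.231.

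Aldh8a1 (probe set 10362052) oxidizes the next semialdehyde on the way to the glutarate arm. It read 10.62, 10.56 and 10.72 on the N-control arrays, 10.60, 10.86 and 10.56 on those of OB-control and 10.41, 10.08 and 10.25 on those of OB-TUDCA. The OB-TUDCA arrays were all below those of both control groups. The level was 74.5% of OB-control, a difference of -0.42 (SE 0.11, interval -0.67 to -0.17) with an adjusted p of 0.146, and the difference from N-control was -0.39 (adjusted p = 0.0998).

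Qprt (probe set 10568169) joins quinolinate to phosphoribose and commits it to NAD. It read 9.53, 9.69 and 9.45 on the N-control arrays, 9.70, 9.65 and 9.43 on those of OB-control and 9.28, 9.03 and 9.08 on those of OB-TUDCA. All OB-TUDCA arrays were again lowest, and the control groups overlapped almost completely. The level was 72.7% of OB-control, a difference of -0.46 (SE 0.11, interval -0.70 to -0.22, adjusted p = 0.108). Against N-control it was -0.42 with an adjusted p of 0.071.

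Nadsyn1 (probe set 10569545) adds the amide group in the last step and also serves NAD made from nicotinic acid. It read 6.70, 6.70 and 6.59 on the N-control arrays, 6.71, 6.77 and 6.68 on those of OB-control and 6.72, 6.81 and 6.66 on those of OB-TUDCA. The 3 groups overlapped. OB-TUDCA minus OB-control was 0.01 with an interval from -0.15 to 0.18 (adjusted p = 0.971), and Nadsyn1 had the smallest pooled standard deviation of the 10, 0.063.

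The unequal change along the route was set out as differences between 2 enzymes on the same array, with a two-sided exact permutation test of group means in which 3 against 3 arrays cannot go below 0.1. Qprt minus Acmsd compares both exits of the branch. It was 1.90, 2.34 and 2.16 on the N-control arrays, 2.68, 1.17 and 3.57 on those of OB-control and 2.40, 3.63 and 3.41 on those of OB-TUDCA. The OB-control arrays held both the lowest and nearly the highest value, and the OB-TUDCA mean exceeded the OB-control mean by 0.68 (exact p = 0.6) and the N-control mean by 1.02 (exact p = 0.1). Without OB-control replicate 2 the first of these was 0.02 (exact p = 1), and without OB-control replicate 3 it was 1.23 (exact p = 0.3). Kmo minus Aadat compares the hydroxylation of kynurenine with its transamination to kynurenic acid. That difference changed by 0.21 between OB-control and OB-TUDCA (exact p = 0.4), and the groups overlapped.

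Kmo minus Tdo2 and Qprt minus Nadsyn1 were added after the values had been seen. Kmo minus Tdo2 was -0.92, -1.28 and -1.10 in OB-control and -1.60, -1.71 and -1.77 in OB-TUDCA. The groups did not overlap, and the change was -0.60 (exact p = 0.1, the smallest possible). Qprt minus Nadsyn1 changed by -0.47 between the same groups (exact p = 0.1). Over the 12 tests of this kind the adjusted p of both was 0.2. With 0.1 as the smallest possible exact p, none of the 12 could pass the threshold, and no conclusion is drawn from that.

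Promoters are shown for 4 enzymes, Kmo, Haao, Aldh8a1 and Qprt, which all read lowest on the OB-TUDCA arrays. RefSeq (GRCm38.p6) listed promoters of 8 of the 10 enzymes, without Ido2 and Kynu, as 250 bases before and 50 after the start of the gene. Capitals mark GGTCAAAG or GTCCAAAG on either strand, 8-letter words of the kind bound by the hepatocyte nuclear factor HNF4A, which do not overlap each other here. The region of Kmo is chr1:175631943-175632242 on the plus strand, that of Haao chr17:83846741-83847040 on the minus strand, that of Aldh8a1 chr10:21377050-21377349 on the plus strand and that of Qprt chr7:127121980-127122279 on the minus strand. The sequences are written 5′ to 3′ along the strand of the gene.
Kmo: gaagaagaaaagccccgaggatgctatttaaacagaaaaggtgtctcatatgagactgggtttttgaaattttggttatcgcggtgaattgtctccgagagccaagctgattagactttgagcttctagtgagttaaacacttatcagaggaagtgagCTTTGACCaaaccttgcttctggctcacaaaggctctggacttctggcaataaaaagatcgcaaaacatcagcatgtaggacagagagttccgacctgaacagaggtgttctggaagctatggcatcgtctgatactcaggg
Haao: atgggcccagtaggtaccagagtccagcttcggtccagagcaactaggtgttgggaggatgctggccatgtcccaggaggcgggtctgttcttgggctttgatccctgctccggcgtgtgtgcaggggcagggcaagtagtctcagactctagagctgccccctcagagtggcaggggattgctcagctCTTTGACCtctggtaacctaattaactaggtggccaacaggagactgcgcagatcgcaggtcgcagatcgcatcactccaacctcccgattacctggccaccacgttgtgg
Aldh8a1: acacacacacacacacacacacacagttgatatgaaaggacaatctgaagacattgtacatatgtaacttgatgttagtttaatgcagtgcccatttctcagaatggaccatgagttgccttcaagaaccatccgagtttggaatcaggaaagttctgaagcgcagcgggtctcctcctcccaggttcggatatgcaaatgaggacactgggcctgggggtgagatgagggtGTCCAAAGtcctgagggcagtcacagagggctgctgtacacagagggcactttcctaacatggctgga
Qprt: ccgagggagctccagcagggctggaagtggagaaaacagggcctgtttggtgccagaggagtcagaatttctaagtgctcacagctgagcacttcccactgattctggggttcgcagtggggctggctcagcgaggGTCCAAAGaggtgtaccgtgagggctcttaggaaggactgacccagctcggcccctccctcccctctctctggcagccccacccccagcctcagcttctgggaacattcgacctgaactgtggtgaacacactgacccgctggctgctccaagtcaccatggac
The word starts 92 bases before the start of Kmo, 61 before that of Haao, 18 before that of Aldh8a1 and 114 before that of Qprt. Kmo and Haao hold CTTTGACC, the reverse complement of GGTCAAAG, and Aldh8a1 and Qprt hold GTCCAAAG as written. Of 32851 promoters of this length, 0.962% held either word on its own and 1.89% held at least 1 of them. The words were chosen after these promoters had been read, so the 4 matches among 8 are a description, and binding was not measured. No match was found for Tdo2, Afmid, Acmsd and Nadsyn1 in these windows.

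The arrays of a group moved together over several enzymes. OB-control replicate 2 was the highest of its group for 8 of 10 enzymes, as it was for 37.4% of all genes, and OB-control replicate 3 was the lowest for 9 of 10, as it was for 34.5% of all genes. OB-TUDCA replicate 1 was the highest of its group for 8 of 10 enzymes and for 37.7% of all genes. The enzymes on an array share its RNA and are not replicates of each other. Spread was unequal, with 0.89 as the pooled standard deviation of Acmsd and 0.53 as that of Afmid, above those of 99.7% and 98.8% of all genes.

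**Figure D3:**
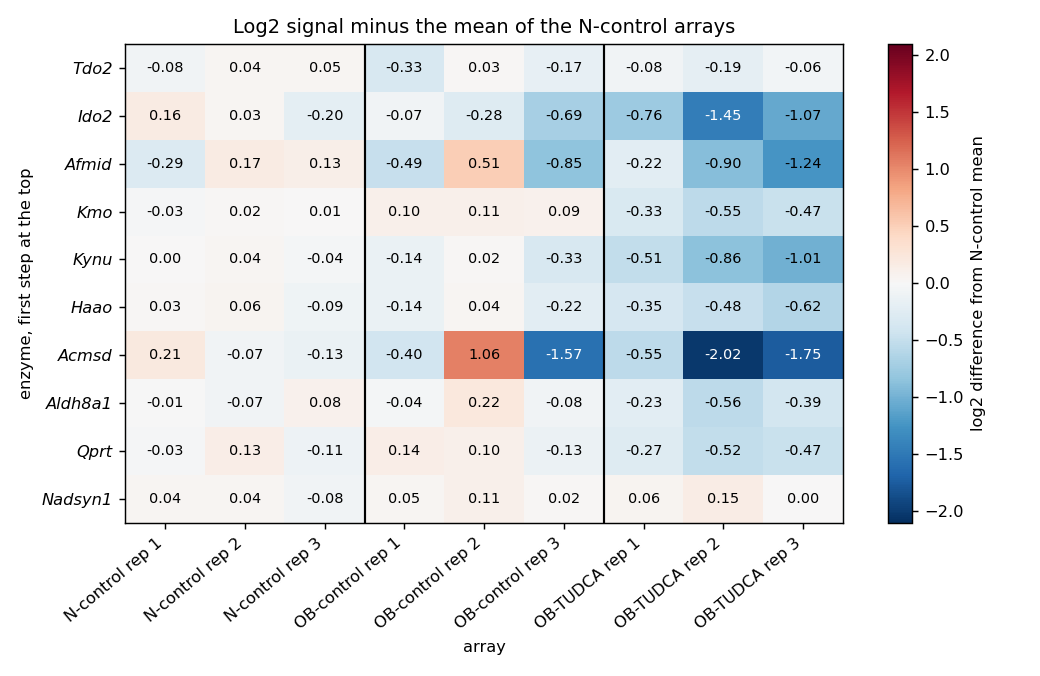
Heat map of the deviation of each enzyme (rows, pathway order) from its N-control mean on each of 9 arrays (columns), as a log2 difference by colour. The 3 OB-TUDCA columns are below 0 in every row except that of Nadsyn1, and Acmsd differs most between OB-control replicates 2 and 3, at 1.06 and -1.57.

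Around the route, 61 genes of 9 lists were measured, and they were chosen with earlier results of these data known. Between OB-TUDCA and OB-control 0 passed the adjusted threshold, while at an unadjusted p under 0.05 there were 19 lower ones and 2 higher ones, where 5.72% of all genes were lower and 6.26% higher, and their median difference was -0.06. Against N-control, OB-TUDCA had 2 genes higher and 3 lower, with 1.35% and 1.89% of all genes. OB-control had 2 higher and 1 lower, with 0.456% and 0.492% of all genes. The rest of the 61 did not pass.

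Of the transaminases that make kynurenic acid, 4 were measured. Against N-control 1 was called lower in OB-TUDCA, where 1.89% of all genes were. Kyat3 fell in OB-TUDCA against N-control, from a mean of 10.57 ± 0.10 (SD, n = 3) to 9.28 ± 0.17 (SD, n = 3), a difference of -1.30 (SE 0.24, adjusted p = 0.0215 in limma). OB-control was between them at 10.09 ± 0.57 (SD, n = 3). The list had 3 of 4 members lower at an unadjusted p under 0.05 between OB-TUDCA and OB-control, against 5.72% of all genes, and a median of -0.54. The Kyat3 call was lost without any 1 N-control array, OB-TUDCA replicate 2 or OB-TUDCA replicate 3, with the acinar covariate and in the methods' t-test.

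In the glutarate arm, which takes up the product of Aldh8a1, 0 of 5 genes passed in any comparison. By comparison and direction, 0.115% to 1.89% of all genes passed. With OB-TUDCA against OB-control, 4 of 5 were lower at an unadjusted p under 0.05, against 5.72% of all genes, and the median was -0.37. Dhtkd1, part of the complex that oxidizes 2-oxoadipate, averaged 8.66 ± 0.28 in OB-control, against 8.05 ± 0.13 in N-control and 7.90 ± 0.24 in OB-TUDCA (SD, n = 3 each). Its difference under TUDCA was -0.75 (SE 0.16, adjusted p = 0.0854). Echs1, a hydratase of the same arm, had a difference of -0.40 (SE 0.096).

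The list of salvage and of the nicotinic acid route, the other sources of NAD, had 0 of 8 genes past the threshold in any comparison. It includes Nmnat1, Nmnat2 and Nmnat3, whose step the route from tryptophan shares, so it does not hold other sources alone. Of all genes, 0.115% to 1.89% passed, by comparison and direction. Between OB-TUDCA and OB-control 0 of 8 reached an unadjusted p under 0.05, where 5.72% of all genes were lower and 6.26% higher. Against N-control 2 of 8 were higher at that level in OB-control (6.55% of all genes) and 2 of 8 in OB-TUDCA (10.4%). Nampt, the rate-limiting enzyme of salvage from nicotinamide, was 0.40 above N-control in OB-TUDCA (SE 0.11) without passing. Nt5e, which cleaves extracellular nucleotides, had the largest difference, 1.66 between OB-control and N-control (SE 0.40), and did not pass either.

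Among 6 genes that make NADP or clear nicotinamide, Aox3, an aldehyde oxidase, fell in OB-TUDCA to 34.95% of N-control. The difference was -1.52 (SE 0.20, adjusted p = 0.0068), and that from OB-control was -0.96 (adjusted p = 0.0865). Aox3 was 1 of 6 past the threshold against N-control, where 1.89% of all genes were called lower. Among 13 NAD-consuming enzymes, Parp3, an ADP-ribosyltransferase, rose in OB-control against N-control by 0.61 (SE 0.099, adjusted p = 0.0269). This was 1 call among 13, where 0.456% of all genes were called higher. The Parp3 call was lost without any 1 N-control array, OB-control replicate 1 or OB-control replicate 3, with the acinar covariate and in the methods' t-test. Between OB-TUDCA and OB-control, an unadjusted p under 0.05 was reached by 4 of the 13, all lower, against 5.72% of all genes lower and 6.26% higher.

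Slc3a2, the heavy chain of amino acid transporters that carry tryptophan, rose in OB-TUDCA against N-control by 1.07 (SE 0.20, adjusted p = 0.0228). It was 1 of 7 transporters past the threshold, where 1.35% of all genes were called higher. Its call was lost without N-control replicate 1, N-control replicate 2 or OB-TUDCA replicate 2, in a fit of only the arrays compared, with the acinar covariate and in the methods' t-test. Of 8 genes for other uses of tryptophan, 0 passed in any comparison, where 0.115% to 1.89% of all genes did. Ddc, the decarboxylase of serotonin synthesis, had a difference of -0.81 between OB-TUDCA and OB-control (SE 0.18), while Maob, which degrades amines, had -0.44 (SE 0.10). Both measured genes of vitamin B6 cofactor supply, Pdxk and Pdxp, stayed under the threshold with largest differences of 0.28 (SE 0.14) and 0.15 (SE 0.12).

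The aryl hydrocarbon receptor, for which kynurenine is a ligand, and its targets made up the last list, with 8 genes. Cyp1a2, a cytochrome P450 target, fell in OB-control by 1.25 on the log2 scale against N-control (SE 0.093, adjusted p = 0.00048), and OB-TUDCA was also lower than N-control, by a difference of -1.28 (adjusted p = 0.000345). Nqo1, a quinone reductase that NRF2 also controls, rose in OB-control by 1.47 (SE 0.12, adjusted p = 0.000558) and in OB-TUDCA by 1.12 (adjusted p = 0.00283) against N-control. The pair of targets thus moved opposite ways. This was 1 of 8 called higher and 1 lower, against 0.456% and 0.492% of all genes in OB-control and 1.35% and 1.89% in OB-TUDCA. The other 6 were not called. Between OB-control and N-control they were at 0.46 (Cyp1a1), 0.29 (Cyp1b1), 0.08 (Arnt), 0.06 (Tiparp), -0.01 (Ahrr) and -0.25 (Ahr). Between OB-TUDCA and OB-control 0 of the 8 passed, where 0.115% of all genes were higher and 0.186% lower.

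**Figure D4:**
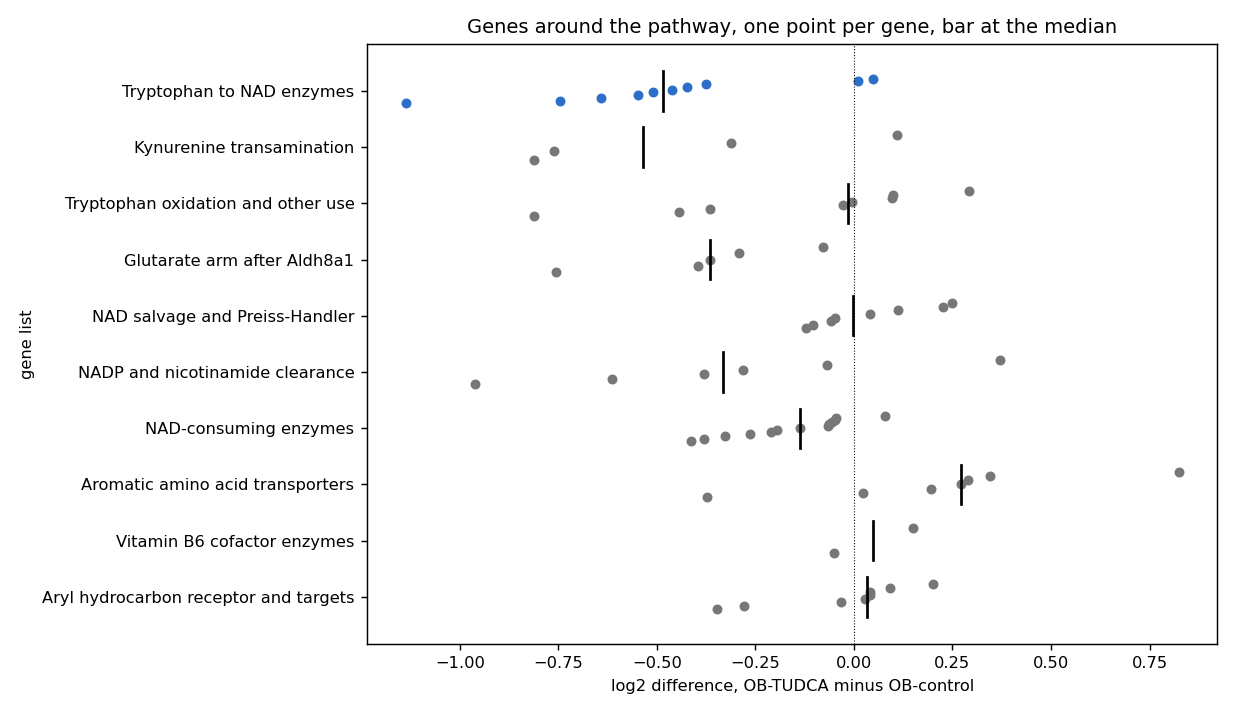
Log2 difference between OB-TUDCA and OB-control (x axis) of each gene (points) in the enzyme list and the 9 lists around the route (y axis), with the median of each list marked. The enzymes have a median of -0.49, kynurenine transamination -0.54 and the glutarate arm -0.37, whereas the salvage list lies around 0. The salvage list includes the Nmnat genes, whose step the route shares.

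Genes most alike in pattern were sought for the 3 enzymes with the largest moderated F over the groups, Kmo (30.2), Kynu (20.2) and Ido2 (15.5). Likeness was the root mean square difference in log2 over 9 arrays after each gene was centred on its mean. For Kmo the nearest were Bphl, a serine hydrolase (0.046), Mkln1 (0.062) and Ptgr2, a prostaglandin reductase (0.065). Kynu was most like Cyp4b1, a cytochrome P450 (0.079), Hibch, an enzyme of valine breakdown (0.098), and F8, coagulation factor VIII (0.10). Ido2 lay nearest to Gch1, the first enzyme of tetrahydrobiopterin synthesis (0.14), Sema4g (0.15) and Cdc14b, a phosphatase (0.16). These genes were chosen for their likeness, and no test was made of it.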

How the data were processed

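The data are 9 arrays of liver total RNA (Affymetrix Mouse Gene 1.0 ST, 3 N-control, 3 OB-control and 3 OB-TUDCA, grouped by the sample labels). That each is a separate mouse is taken from the label of biological replicate. The authors deposited log2 signals of 35556 probe sets, made with RMA in Affymetrix Expression Console (version not given), and RMA was not repeated. RMA is meant to make array distributions equal, so a shift of all genes would not be seen. The deposited values still differed slightly, with array medians from 4.502 to 4.579 over all probe sets. The authors' own selection by fold and significance analysis was not used. Probe sets with 1 symbol in the platform annotation (21789) were averaged per symbol to 19938 genes, and those with several (1621) or none (12146) were left out. Differences were fitted in limma 3.58.1 (R 4.3.3) with 3 group means on all 9 arrays, 6 residual and 3.33 prior degrees of freedom. The number of arrays and the spread between them limit the precision. The fit was tested on simulated data. Named were the 10 enzymes, the genes of each list past the threshold in any comparison or, where none passed, the 2 with the largest difference, and the 3 genes nearest to each of the 3 enzymes of largest F. The enzymes and lists were chosen with earlier results of these data known. Motifs were counted with Python 3.11.15.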

Additional observations from a re-analysis of the deposited data

How the results depend on the processing

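With 3 arrays a group, calls near the threshold moved with the setting while directions mostly did not. Of 570 values of single enzymes under alternatives, 515 kept direction and side of the threshold, 40 lost the call, 2 gained it and 13 changed sign, and the cause was not tested. The count of enzymes below OB-control in OB-TUDCA was 1 (Kmo) and became 0 in a fit of only the arrays compared, under the replicate block, with the acinar mean as a covariate and in the methods' t-test, and 0 to 2 with each array left out. Under the replicate block the adjusted p of Kmo was 0.0527, the 4 calls against N-control remained, and the labels tie no replicate number to a litter, batch or day. Deviations of same-numbered arrays correlated at -0.0753 to 0.209, not all over 0.1, and 7 of 9 arrays correlated best with their own number, a hint of pairing from the data and not from the design. The 4 enzymes lower in OB-TUDCA than in N-control became 2 (Ido2 and Kynu) in a fit of only the arrays compared, 0 with the acinar covariate, 0 in the methods' t-test, 5 with each array's median subtracted, and 0 to 4 with each array left out. After quantile normalization they became 3, without Haao (adjusted p = 0.0756 in limma). Haao lost its call against N-control in 10 of 19 alternatives. The median of the enzymes between OB-control and N-control ran from -0.2096 to 0.0448 with each array left out.

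Signs turned only for differences near 0 or with single arrays left out. For OB-control minus N-control, leaving out each array in turn gave -0.0591 to 0.0902 for Aldh8a1 (below 0 without replicate 2 of either control group), -0.0148 to 0.1221 for Qprt (below 0 without OB-control replicate 1 or replicate 3 of N-control), and -0.6658 to 0.0113 for Afmid and -0.9848 to 0.3308 for Acmsd (both above 0 without OB-control replicate 3). With the acinar covariate Aldh8a1 was -0.001. For OB-TUDCA minus OB-control it gave -0.0288 to 0.0452 for Nadsyn1 (below 0 without OB-control replicate 3 or OB-TUDCA replicate 2) and -0.0382 to 0.1417 for Tdo2 (below 0 without OB-control replicate 1). Nadsyn1 was -0.011 after quantile normalization and -0.0217 after median subtraction. For OB-TUDCA minus N-control, Tdo2 was 0.0326 after quantile normalization. Qprt minus Acmsd between OB-control and N-control ran from -0.2086 to 0.9928 with each array left out, and Kmo minus Aadat between OB-TUDCA and OB-control from -0.0275 to 0.4187.

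Over all genes, OB-TUDCA against OB-control gave 23 higher and 37 lower, but 0 of either in the fit of only the arrays compared, with the acinar covariate and in the methods' t-test, 50 and 81 without the third of genes of lowest signal, 44 and 53 after quantile normalization, and 23 and 62 after median subtraction. OB-TUDCA against N-control gave 269 and 377, but 127 and 218 in the fit of only the arrays compared, 119 and 202 with the acinar covariate, 0 and 0 in the t-test, 430 and 441 under the replicate block, and 208 and 491 after median subtraction. OB-control against N-control gave 91 and 98, but 25 and 40, 34 and 38, and 0 and 1 in the same first 3 settings, and 170 and 188 with array weights. The alternatives for the named genes outside the 10 enzymes were added after seeing the data, and 0 of them turned a direction, while the calls of Kyat3, Aox3, Parp3, Slc3a2, Cyp1a2, Nqo1, Lyve1, Kdr and Hnf4a were all lost in the methods' t-test. In that test at most 1 of 19938 genes passed in any comparison, so these losses are not particular to these genes.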
